A study of Rattus norvegicus with 160 samples.

Results

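Sst, Npy, Cck, Vip and Pvalb mark classes of inhibitory interneuron, and 4 of the 5 had a row in the array table: Sst, Npy, Cck and Pvalb, with 1 row each. Rows were matched to the genes through their RefSeq identifiers. Vip was not analysed here. The 4 genes were followed among 22197 transcripts measured in the amygdala and 25897 in the hippocampus. Because each gene was read by its own probes, levels were compared between groups for 1 gene and not between genes.

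The arrays came from male Sprague-Dawley rats of 2 selectively bred lines, LR and HR, the names in the field for low and high responders to novelty. In each region and at each of 4 ages (P07, P14, P21 and adult, postnatal day 75) there were 4 rearing groups of 5 arrays: the group LR held LR pups kept with the mother that bore them, LR-LR held LR pups given to an LR foster dam, LR-HR held LR pups given to a foster dam of the HR line, and HR held HR pups kept with their own mother. HR pups fostered to another dam were not analysed here. The study addressed maternal care and the developing amygdala in anxiety-prone rats. The sources used here name no litters, so the p-values measure the spread between arrays of a group and pups of 1 litter may share a group.

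Inhibitory interneurons release GABA, and most of them also carry a neuropeptide or a calcium-binding protein by which their class is known. Sst encodes somatostatin, a peptide of interneurons that target dendrites and of neurons of the central amygdala. Npy encodes neuropeptide Y, a peptide that opposes anxiety-like behaviour in rodents, and Cck encodes cholecystokinin, found in basket interneurons and, at the RNA level, also in many excitatory neurons. Pvalb encodes parvalbumin, the calcium buffer of fast-spiking interneurons, which appears after birth as these cells mature. Each region was dissected from thick frozen sections as bulk tissue, so fewer cells of a type and less RNA per cell cannot be told apart in any of the results.

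The genes lie on separate chromosomes of the rat assembly GRCr8. Sst (NM_012659) lies at chr11:90461546-90462823, Npy (NM_012614) at chr4:80212111-80219310, Cck (NM_012829) at chr8:130031012-130037702 and Pvalb (NM_022499) at chr7:111653820-111668469. Promoter windows of 300 bases, from 250 before to 50 after the annotated start, are shown for Sst, Npy and Pvalb, which were all called in the amygdala foster comparison at P14. Capitals mark TGACGTCA, the palindromic site of the cAMP response element known from the somatostatin promoter, and TGACG, its shorter form. The windows are RefSeq sequence of GRCr8, at chr11:90461296-90461595 on the plus strand for Sst, chr4:80211861-80212160 on the plus strand for Npy and chr7:111666240-111666539 on the minus strand for Pvalb, whose annotated start here lies inside the span given above and not at its outer end.
Sst: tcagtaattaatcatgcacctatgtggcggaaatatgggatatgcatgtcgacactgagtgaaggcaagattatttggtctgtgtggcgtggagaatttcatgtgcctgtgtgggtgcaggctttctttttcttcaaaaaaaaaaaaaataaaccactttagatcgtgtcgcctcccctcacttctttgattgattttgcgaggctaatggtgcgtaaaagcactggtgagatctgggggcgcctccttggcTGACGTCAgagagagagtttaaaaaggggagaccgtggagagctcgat
Npy: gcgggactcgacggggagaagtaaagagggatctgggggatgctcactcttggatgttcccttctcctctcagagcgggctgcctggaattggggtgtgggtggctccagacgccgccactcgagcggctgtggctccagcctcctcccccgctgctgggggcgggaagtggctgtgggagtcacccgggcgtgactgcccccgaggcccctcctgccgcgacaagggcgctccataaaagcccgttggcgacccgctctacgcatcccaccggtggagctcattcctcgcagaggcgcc
Pvalb: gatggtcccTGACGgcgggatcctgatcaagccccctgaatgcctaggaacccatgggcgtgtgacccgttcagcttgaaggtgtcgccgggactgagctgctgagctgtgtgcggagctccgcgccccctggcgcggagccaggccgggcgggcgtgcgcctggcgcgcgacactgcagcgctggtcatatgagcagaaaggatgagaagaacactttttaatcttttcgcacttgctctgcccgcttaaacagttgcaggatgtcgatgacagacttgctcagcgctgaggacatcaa
TGACGTCA began at base 253 of the Sst window, 2 bases after the annotated start and not before it. Of 33469 promoter windows of this length, 1.83% held it on either strand. TGACG, which lies inside TGACGTCA, began at base 10 of the Pvalb window, and 21.2% of windows held it. TATAAA and CACGTG, held by 14.2% and 6.42% of windows, were not in these 3 windows on either strand, and none of the 4 motifs was in the Npy window. The motif matches were not tested against the expression values.

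Intensities had been normalized by the authors separately in each region, and no level was set across regions. Arrays of 1 group correlated at a median of 0.94 for the amygdala and 0.906 for the hippocampus. Markers of the labelled tissues were measured only in part, 5 of 7 listed for amygdala neurons and 2 of 6 for hippocampal neurons. Nr2f2 averaged 11.80 on the log2 scale and the peptide gene Cartpt 8.78 in the amygdala, and Wfs1 averaged 8.80 in the hippocampus. The measured markers were mixed and as a set do not tell the regions apart. Nr2f2 stood at percentile 96.1 of the amygdala transcripts and 88.5 of the hippocampal ones, Prkcd at 67.7 and 50.6, and Slc17a6 at 58.9 and 55.9. The other amygdala markers went the other way, Cartpt at 69.6 and 78.6 and Pdyn at 56.3 and 66.6. So did the hippocampal markers, Wfs1 at 93.4 and 84.1 and Slc17a7 at 97.5 and 96.2. The striatal gene Penk, which the central amygdala also expresses, averaged 13.96 on the amygdala arrays. In the hippocampus 1 array stood apart, LR P21 replicate 5: its mean correlation with the other arrays of its group was 0.662, against 0.829 to 0.843 for the others. Its mean over 9 neuronal genes was 9.46 against 11.51 to 11.71 in the others. Glial genes were low too, with 9.72 against 10.65 to 10.90 for astrocyte genes and 8.94 against 10.23 to 10.55 for myelin genes. Its mean over 24 ribosomal protein genes was 11.98 against 11.69 to 11.93, and over a list of stress and housekeeping genes 11.12 against 10.30 to 10.77. Hippocampal calls and correlations that changed without this array are given both ways.

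In the amygdala the 4 genes followed separate courses with age. Averaged over the rearing groups, Pvalb rose by 2.02 ± 0.12 (log2 difference ± SE) from P07 to P14 and by a further 1.47 ± 0.12 from P14 to P21 (limma adjusted p = 3.84e-24 and 1.13e-16). Its mean over 20 arrays was 5.77 ± 0.48 (SD) at P07, 7.79 ± 0.61 at P14, 9.26 ± 0.32 at P21 and 8.99 ± 0.35 in adults, so that the P07 arrays (4.93 to 6.72) lay at or below all P14 arrays (6.72 to 8.72). The random control sequence had no amygdala values, so whether Pvalb was above background at P07 was not tested and the size of its first rise is uncertain. Cck rose at each step, by 0.33 ± 0.08, 0.30 ± 0.08 and 0.38 ± 0.08 (adjusted p = 0.00046, 0.00364 and 0.000117). Sst fell by 0.37 ± 0.06 and then by 0.31 ± 0.06 and rose by 0.42 ± 0.06 into adulthood (adjusted p = 2.79e-06, 0.000145 and 4.78e-07). No step was called for Npy, whose 3 differences were 0.13, -0.10 and -0.16. Calls were made at an adjusted p under 0.05 over all transcripts, and 27.6%, 15.3% and 19.7% of all transcripts were called at the 3 steps.

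The steps for Sst, Npy and Cck averaged rearing groups that moved in opposite ways. In the LR and HR groups alone, Cck differed by -0.20 ± 0.10 from P14 to P21 (limma adjusted p = 0.162), the opposite sign to the step over all 4 groups, and Cck from P21 to adult was not called (0.30, adjusted p = 0.0559). Without the replicate numbered 3, the Cck step from P14 to P21 was not called either (0.21, adjusted p = 0.121). Npy in those LR and HR arrays rose by 0.49 and then fell by 0.54 (adjusted p = 0.000573 and 0.000215). Pvalb kept both called rises there and in each setting tried.

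**Figure D1:**
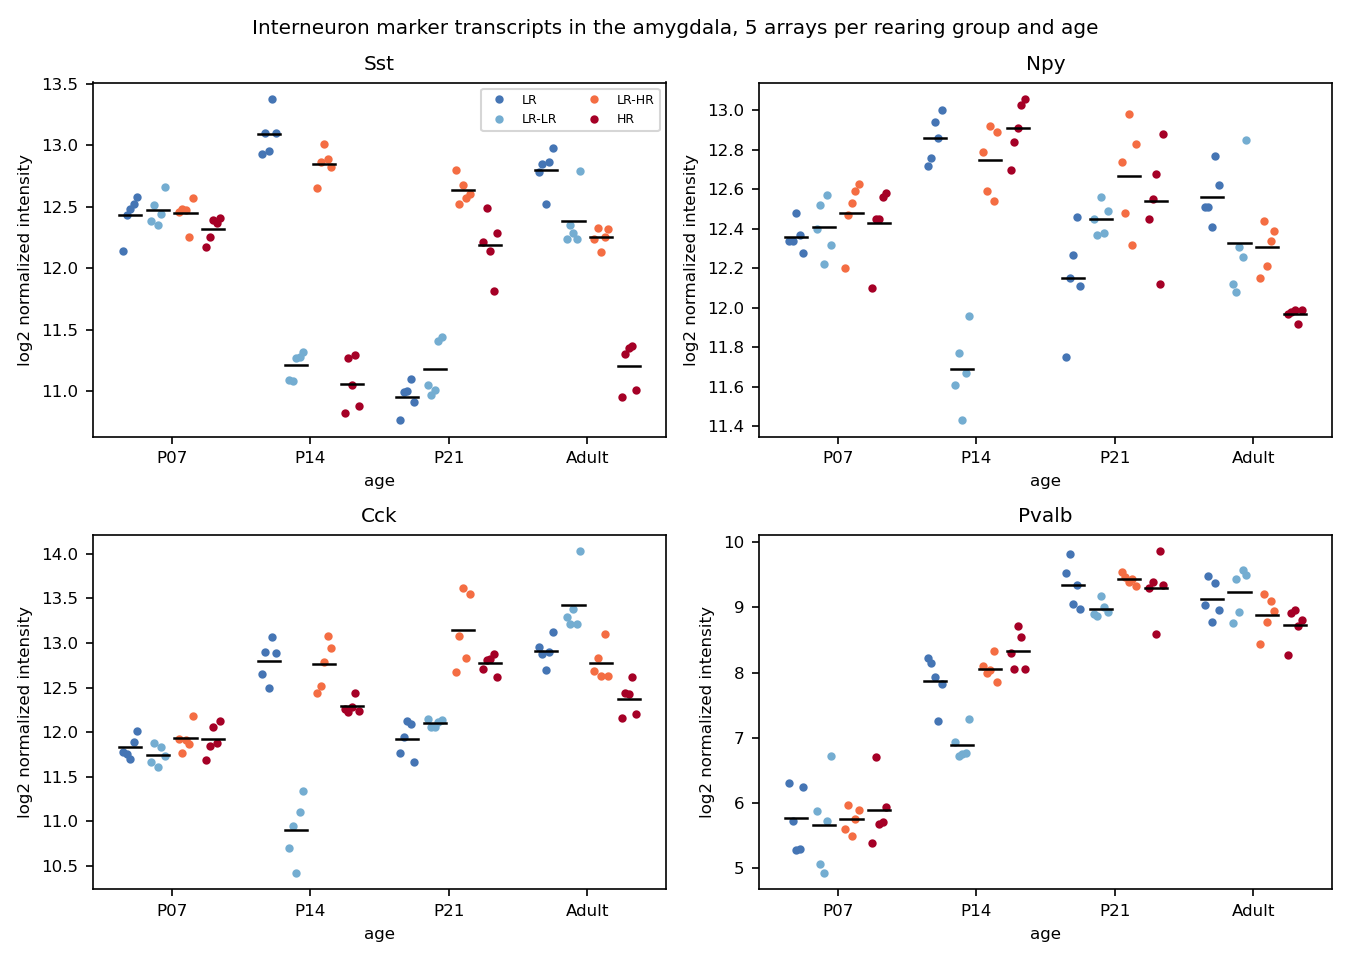
Log2 normalized intensity (vertical axes) of each gene in the amygdala by age, with 1 point per array, colours for the 4 rearing groups and a black bar at the mean of 5 arrays. The groups overlap at P07, where Sst runs from 12.14 to 12.66, and part at P14, where Sst runs from 10.82 to 13.38; Pvalb rises from P07 to P21 in each group.

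At P07 the rearing groups did not part in the amygdala. Sst ranged from 12.14 to 12.66 over all 20 arrays and the range of the 4 group means was 0.15, against a pooled SD within groups of 0.13. Npy, Cck and Pvalb had group means within 0.12, 0.19 and 0.22 of each other. None of the 4 genes was called in any of the 4 comparisons, among 0.0901% of transcripts called for LR-HR minus LR-LR, 0.131% for HR minus LR, 0.0586% for LR-LR minus LR and 0.036% for HR minus LR-HR. At an unadjusted limma p under 0.05 there was also no call among the members at this age.

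At P14 the LR pups fostered to an LR dam had lower levels of all 4 genes than the LR pups fostered to an HR dam, with arrays that did not overlap. Sst read 12.65, 12.86, 13.01, 12.89 and 12.82 in the 5 LR-HR arrays and 11.09, 11.08, 11.27, 11.28 and 11.32 in the LR-LR arrays. Each LR-HR array was above the highest LR-LR array, a difference of 1.64 ± 0.16 or 3.12-fold (limma adjusted p = 8.41e-07). Cck read 12.44, 12.52, 12.79, 13.08 and 12.94 in LR-HR and 10.70, 10.95, 10.42, 11.10 and 11.34 in LR-LR arrays. Its difference of 1.85 ± 0.19, or 3.61-fold, was also without overlap (adjusted p = 1.44e-06). Npy read 12.79, 12.59, 12.92, 12.54 and 12.89 in LR-HR against 11.61, 11.77, 11.43, 11.67 and 11.96 in LR-LR arrays, 1.06 ± 0.16 higher (adjusted p = 5.39e-05). Pvalb read 8.10, 7.99, 8.04, 8.33 and 7.86 in LR-HR against 6.93, 6.72, 6.76, 6.77 and 7.29 in LR-LR arrays, 1.17 ± 0.20 higher (adjusted p = 0.000251). The foster comparison thus called 4 of 4 members, where it called 22.3% of all transcripts. Among transcripts above the median level, where all 4 members lay, it called 40.3%. Shares of all transcripts given for other comparisons include low levels too.

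Own-mother LR pups at P14 were on the same side as LR-HR pups. Compared with them, the LR-LR group was lower in all 4 genes, with differences of -1.89 in Sst, -1.90 in Cck, -1.17 in Npy and -0.98 in Pvalb (limma adjusted p = 4.48e-08, 2.65e-07, 7.2e-06 and 0.000626). The arrays did not overlap for the 3 peptide genes and overlapped for Pvalb, where 1 LR array at 7.26 lay under the highest LR-LR array at 7.29. This fostering comparison, LR-LR minus LR, called 37.7% of all transcripts and 59.9% of those above the median level. It shares its LR-LR arrays with the foster comparison, so the low LR-LR arrays enter both.

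Between HR and LR pups at P14, Sst was the 1 member called. The HR arrays read 10.82, 11.27, 11.05, 11.29 and 10.88 for Sst, and the LR arrays 12.93, 13.10, 12.95, 13.38 and 13.10. All HR arrays were lower, a difference of -2.03 ± 0.16 or 4.08-fold (limma adjusted p = 1.52e-07), in a comparison that called 22.8% of transcripts. Npy differed between HR and LR pups by 0.05 ± 0.16 and Pvalb by 0.46 ± 0.20, without a call (adjusted p = 0.858 and 0.113). Cck was 12.29 ± 0.09 in HR and 12.80 ± 0.22 in LR arrays, without overlap and without a call (-0.51 ± 0.19, adjusted p = 0.0584). Against LR-HR pups, which had HR dams as well, HR pups were lower in Sst (-1.78 ± 0.16, adjusted p = 2.11e-06), the 1 member called where 15.3% of transcripts were. At P14 the order of the group means of Sst was LR, LR-HR, LR-LR and HR; arrays of the first 2 overlapped, as did those of the last 2. For Npy and Pvalb the LR-LR mean was lowest, at 11.69 and 6.89, and the HR mean highest, at 12.91 and 8.33. The LR and LR-HR means lay between, at 12.86 and 12.75 for Npy and 7.87 and 8.06 for Pvalb.

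At P21 Sst and Cck were higher in both groups raised by HR dams. Sst read 12.80, 12.52, 12.68, 12.57 and 12.60 in LR-HR and 11.05, 10.97, 11.01, 11.41 and 11.44 in LR-LR arrays, 1.46 ± 0.17 higher without overlap (limma adjusted p = 9.78e-06). In HR arrays it read 12.21, 12.49, 12.14, 11.81 and 12.29, and in LR arrays 10.76, 10.99, 11, 11.10 and 10.91, a difference of 1.24 ± 0.17 (adjusted p = 0.000285). The sign of the difference between the lines was thus opposite to that at P14. Cck was higher by 1.05 ± 0.19 for LR-HR against LR-LR arrays and by 0.85 ± 0.19 in HR than in LR arrays (adjusted p = 0.000684 and 0.00617), both without overlap. Npy and Pvalb were not called in either comparison; their differences were 0.22 and 0.46 for LR-HR minus LR-LR, and 0.39 and -0.05 for HR minus LR. These 2 comparisons called 21.6% and 15.7% of transcripts, with a median change over all transcripts of -0.15 and -0.14, and with each array centred on its own median Sst differed by 1.63 and 1.41. No member was called by limma for LR-LR minus LR (0.0135% of transcripts) or for HR minus LR-HR (0% of transcripts), where Sst alone of the members had an unadjusted limma p under 0.05 (-0.45 ± 0.17, without overlap).

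In adults Sst was lowest in HR rats. It read 10.95, 11.30, 11.35, 11.37 and 11.01 in HR and 12.78, 12.85, 12.52, 12.86 and 12.98 in LR arrays, a difference of -1.60 ± 0.16 or 3.03-fold lower (limma adjusted p = 8.06e-07). Npy and Cck were lower too, at -0.60 ± 0.16 and -0.54 ± 0.18 (adjusted p = 0.00727 and 0.0288), and Pvalb was not called (-0.40 ± 0.21, adjusted p = 0.172). The line comparison called 28.1% of transcripts. The Cck call was lost without LR replicate 1 (-0.53, adjusted p = 0.0539), LR replicate 5 (-0.49, 0.0597), HR replicate 1 (-0.49, 0.065) or HR replicate 5 (-0.50, 0.0692). Adult HR rats were also lower in Sst than LR-HR rats (-1.06 ± 0.16, adjusted p = 0.000572), where 2.8% of transcripts were called.

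The foster comparison in adults called Cck alone, and in the opposite direction to the pups. Cck read 12.68, 12.83, 12.63, 13.10 and 12.63 in LR-HR and 13.29, 13.21, 13.38, 13.21 and 14.03 in LR-LR arrays. All LR-LR arrays were higher, a difference of -0.65 ± 0.18 for LR-HR minus LR-LR (limma adjusted p = 0.0136), where 21.7% of transcripts were called and the median change of all transcripts was 0.12. Fitted on those 2 groups alone, the Cck difference was not called (adjusted p = 0.053). Sst and Npy differed between these groups by -0.13 ± 0.16 and -0.02 ± 0.16. No member was called for LR-LR minus LR in adults (0.658% of transcripts), where Cck was 0.52 ± 0.18 higher without overlap (adjusted p = 0.193).

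**Figure D2:**
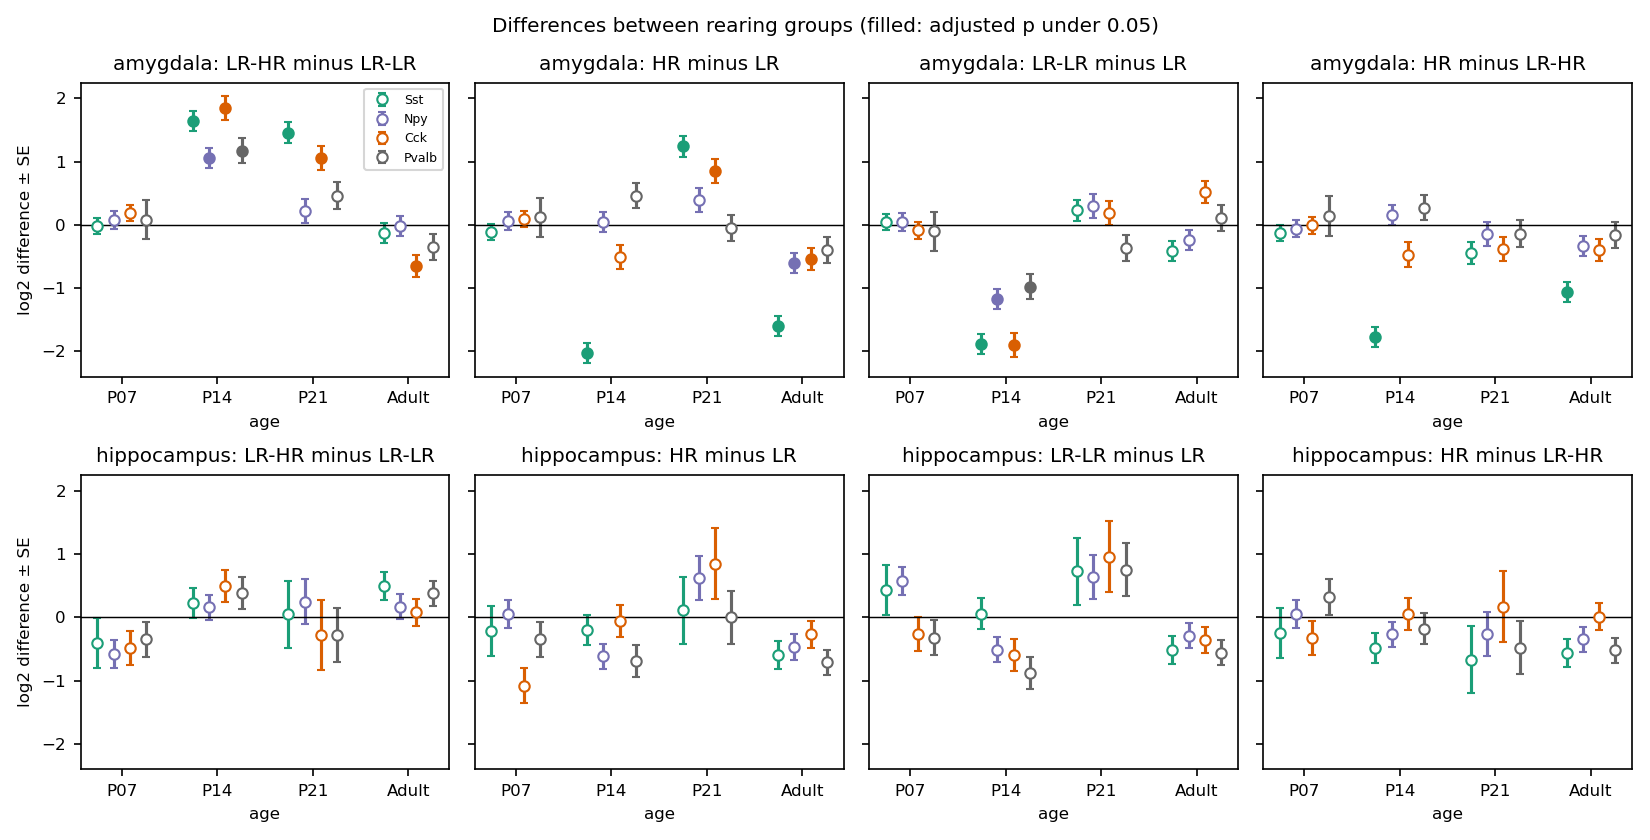
Log2 differences between rearing groups ± SE (vertical axes) by age for Sst, Npy, Cck and Pvalb in the amygdala (upper row) and hippocampus (lower row), with filled points where the limma adjusted p was under 0.05. In the amygdala the filled points begin at P14, and for HR minus LR those of Sst pass from -2.03 at P14 to 1.24 at P21 and -1.60 in adults; no point is filled in the hippocampus.

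The change of these differences with age was tested directly in the 80 amygdala arrays. The foster difference grew from P07 to P14 in all 4 genes, by 1.66 ± 0.18 for Sst, 0.98 ± 0.19 for Npy, 1.66 ± 0.22 for Cck and 1.09 ± 0.33 for Pvalb (limma adjusted p = 4.87e-11, 4.77e-05, 1.25e-08 and 0.00994), where 22.7% of transcripts were called. From P14 to P21 Npy was the 1 member called (-0.84 ± 0.19, adjusted p = 0.0259, 0.27% of transcripts called), a call lost with median centring (adjusted p = 0.0728) and without any 1 replicate number (adjusted p = 0.0536 to 0.198). The change in Cck was of like size without a call (-0.81 ± 0.22, adjusted p = 0.0803) and was called with quantile normalization, with trend and robust variance and with the replicate block (adjusted p = 0.0417, 0.0448 and 0.0343). Pvalb differed by -0.71 ± 0.33 (adjusted p = 0.395). From P21 to adult it fell by 1.59 ± 0.18 in Sst and by 1.70 ± 0.22 in Cck (adjusted p = 5.95e-11 and 3.09e-09), and by 0.81 ± 0.33 in Pvalb (adjusted p = 0.0406), where 41.1% of transcripts were called. The Pvalb call was lost without replicate 1, 2, 4 or 5 (adjusted p = 0.106, 0.086, 0.102 and 0.0807), and the rise of its foster difference from P07 to P14 was lost without replicate 4 (0.98, adjusted p = 0.068).

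The line difference HR minus LR changed most in Sst, where it turned in sign at both later steps. It moved by -1.92 ± 0.18 from P07 to P14, by 3.27 ± 0.18 from P14 to P21 and by -2.84 ± 0.18 from P21 to adult (limma adjusted p = 1.32e-12, 5.07e-24 and 1.2e-20). Cck followed with 1.36 ± 0.22 and -1.39 ± 0.22 at the later 2 steps (adjusted p = 5.41e-07 and 3.3e-07), and Npy with -0.98 ± 0.19 at the last (adjusted p = 2.07e-05). These steps called 14.6%, 35.4% and 39.6% of all transcripts. Pvalb was called at none of them.

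Sst in the amygdala fell into 2 ranges when cut at the widest gap between arrays, a cut chosen from these data. All 25 arrays of 5 groups, LR-LR and HR at P14, LR and LR-LR at P21 and HR in adults, lay between 10.76 and 11.44, and the 55 arrays of the other 11 groups lay between 11.81 and 13.38. No group had arrays on both sides of this gap of 0.37. A gap of like size lay inside the upper range, between HR P21 replicate 4 at 11.81 and the next array, adult LR-HR replicate 3 at 12.13. The same 5 groups were the 5 lowest of the 16 in the mean of 24 ribosomal protein genes, which encode the protein part of the ribosome: their arrays ran from 11.20 to 11.82, and those of the other groups from 11.92 to 12.80. The part of this shift in the Sst results was not tested, and the sources used here name neither slides nor scan dates.

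**Figure D3:**
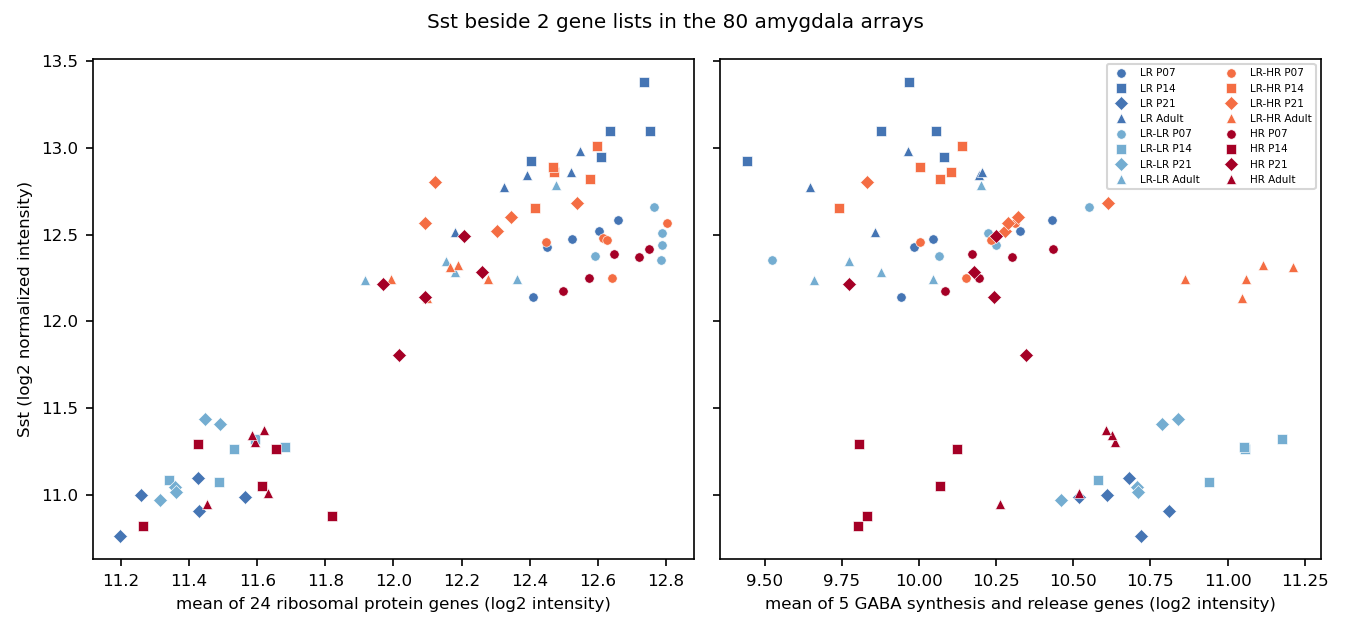
Sst (vertical axes, log2 normalized intensity) against the mean log2 intensity of 24 ribosomal protein genes (left) and of 5 GABA synthesis and release genes (right) in the 80 amygdala arrays, with colours for rearing groups and marker shapes for ages. On the left the 25 arrays with Sst at or below 11.44 have ribosomal means up to 11.82 and the others start at 11.92; on the right HR arrays at P14 (9.80 to 10.12) and LR-LR arrays at P14 (10.58 to 11.18) lie apart at like Sst levels.

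The ribosomal protein genes moved with Sst in each amygdala comparison that called Sst. Of 24 genes, 21 were higher and 0 lower for LR-HR against LR-LR pups at P14 (median change 0.91), and 18 and 0 at P21 (0.82). For HR minus LR, 0 were higher and 24 lower at P14 (-0.99), 16 and 0 at P21 (0.66), and 0 and 19 in adults (-0.81). For LR-LR minus LR at P14 the counts were 0 and 21 (-1.03), and for HR minus LR-HR 0 and 23 at P14 and 0 and 11 in adults. Against this, 2 of 24 were lower and none higher in the adult foster comparison, where Cck was called. Over all transcripts the median change in these comparisons was between -0.15 and 0.12, and the share called between 2.8% and 37.7%.

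In both P14 comparisons with LR-LR pups, the called genes that make and move GABA went the other way from the peptide genes. Of 5 genes of GABA synthesis and release, 0 were higher and 4 lower for LR-HR against LR-LR pups (median -0.97), where all 4 interneuron markers were higher. Gad1, which makes GABA from glutamate, differed by -1.08 ± 0.21 (limma adjusted p = 0.0008). In LR-LR against LR pups, 4 were higher and 0 lower (median 1.19), with Gad1 1.45 ± 0.21 higher (adjusted p = 1.57e-05). HR pups at P14, whose Sst arrays overlapped those of LR-LR pups, had 0 genes higher and 1 lower against LR at a median of 0.15: Gad2, the other GABA-making enzyme (-0.59 ± 0.20, adjusted p = 0.0418). For HR minus LR-HR at P14, where Sst was also lower, 0 were higher and 2 lower (median 0.13), Gad2 by -0.83 (adjusted p = 0.00781) and Slc32a1, which loads GABA into vesicles, by -0.63 (adjusted p = 0.0311); with quantile normalization 1 was higher and 1 lower. In adult LR-HR rats all 5 were higher than in LR-LR rats (median 1.12), Gad2 by 1.31 ± 0.19 (adjusted p = 0.000124), at an Sst difference of -0.13. For HR minus LR 4 of 5 were higher in adults and 0 lower, a count of 2 higher and 1 lower with quantile normalization or median centring. The comparisons with GABA counts called between 15.3% and 37.7% of all transcripts. The signs of the GABA medians named here and of the ribosomal medians held under quantile normalization and median centring.

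Other genes of interneurons were split at P14. Of 25 with a row, 4 were higher and 5 lower for LR-HR against LR-LR pups (median -0.34). Among those higher, Cort, which encodes cortistatin, a peptide akin to somatostatin, differed by 1.21 ± 0.27 and the transcription factor gene Maf by 0.91 ± 0.22 (limma adjusted p = 0.00238 and 0.00518). Nxph1, which encodes the neurexin ligand neurexophilin, differed by -1.14 ± 0.20, and Erbb4, a neuregulin receptor gene, by -1.02 ± 0.29 (adjusted p = 0.000227 and 0.0149). For LR-LR minus LR, 12 were higher and 4 lower, and Cort again moved with Sst (-1.35 ± 0.27, adjusted p = 0.00045). For HR minus LR at P14, 4 were higher and 3 lower, with Nr2f2 lowest (-1.21 ± 0.21, adjusted p = 0.000185). In adults 8 were higher and 1 lower, the tachykinin gene Tac1 (-0.84 ± 0.31, adjusted p = 0.0442). Of all transcripts, 22.3% were called for LR-HR minus LR-LR at P14 and 37.7% for LR-LR minus LR. For HR minus LR the shares were 22.8% at P14 and 28.1% in adults. The list counts were not tested against these shares.

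In the foster comparison the called peptide receptors were lower at P14 and P21, while the called members were higher, at P21 Sst and Cck alone. The list also held receptors of VIP and PACAP, peptides whose genes were not followed here. Of 11 receptor genes measured, 0 were higher and 4 lower for LR-HR against LR-LR pups at P14, among them Npy2r, a receptor of neuropeptide Y, at -1.58 ± 0.24, and Adcyap1r1, the receptor of the peptide PACAP, at -1.55 ± 0.27 (limma adjusted p = 5.68e-05 and 0.00026). At P21 the counts were 0 and 4, with the somatostatin receptor gene Sstr4 lower (-1.12 ± 0.22, adjusted p = 0.0013). Over all transcripts, 4943 were called at P14 (22.3%), of which 3052 were lower, and 4797 at P21 (21.6%), of which 3433 were lower. The receptor counts at P21 were 0 and 2 with quantile normalization and 0 and 3 with median centring. Adult HR rats had 6 receptors higher and 0 lower than LR rats, Npy2r by 1.58 ± 0.26 and Sstr3 by 1.49 ± 0.27 (adjusted p = 0.000106 and 0.000293). That comparison called 6236 transcripts (28.1%), of which 4486 were higher. Genes that process peptides from their precursors were mixed at P14, with 1 of 11 higher in LR-HR (Pcsk1n, which encodes proSAAS, 0.89 ± 0.21, adjusted p = 0.00396) and 2 lower. The share of all transcripts called there was 22.3%.

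Markers of neighbouring tissue and of glia differed between the same groups. Of 12 striatal genes, 8 were lower and 0 higher for LR-HR against LR-LR pups at P14 (median -1.02), with list means per array of 8.57 to 8.88 against 9.67 to 10, and 9 were higher and 0 lower in adults (median 1.31). For HR minus LR at P14, all 10 myelin genes were higher (median 2.10), with list means per array of 10.30 to 11.98 in HR and 8.52 to 8.98 in LR pups, beside the fall of Sst. At P07 the striatal list means ran from 9.17 to 9.77 over all groups. Of all transcripts, the foster comparison called 22.3% at P14 and 21.7% in adults, and HR minus LR called 22.8% at P14. The part of these markers in the member results was not tested.

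In the hippocampus all 4 genes rose from P07 to P14. Averaged over the rearing groups, Pvalb rose by 1.88 ± 0.15, Sst by 1.15 ± 0.20, Cck by 0.85 ± 0.18 and Npy by 0.57 ± 0.12 (limma adjusted p = 1.35e-16, 5e-06, 0.000347 and 0.000156), where 12.1% of transcripts were called. From P14 to P21 Pvalb rose by a further 1.13 ± 0.15 and Npy fell by 0.83 ± 0.12 (adjusted p = 7.21e-09 and 3.85e-08, 20.2% called). In the LR and HR arrays alone this Pvalb rise was not called (0.65, adjusted p = 0.0744). That fit includes LR P21 replicate 5, where Pvalb read 6.49 against 9.16 to 9.49 on the other arrays of its group. The fit of LR and HR arrays was not run without it. At P07 the Pvalb signal was near that of a random control sequence, at or below it on 9 of 20 arrays, so the size of its first rise is uncertain. From P21 to adult no member was called (15.2% of transcripts), with differences of -0.39 for Sst and -0.20 for Npy. Without the LR P21 array that stood apart, Sst fell by 0.58 and Npy by 0.32 at this step (adjusted p = 0.00491 and 0.00963).

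Replicate 5 carried the highest hippocampal level at P07 in each of the 4 rearing groups for Sst, Npy and Cck. Sst read 11.02 in LR, 11.25 in LR-LR, 11.19 in LR-HR and 11.31 in HR replicate 5, and between 9.01 and 10.38 on the other 16 arrays. The same 4 arrays had ribosomal protein means of 12.54, 12.53, 12.40 and 12.31, against 11.40 to 12.14 on the others. Their respiratory chain means were 11.12 to 11.22, against 10.17 to 10.83. They were also the highest of their groups in the means of neuronal and of astrocyte genes, so the shift was not limited to the peptide and ribosomal genes. Pvalb was not raised in replicate 5, with 5.36 to 6.25 there and 5.25 to 7.12 on the others. Whether arrays with the same number share a litter, a day or a slide is not stated in the labels.

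**Figure D4:**
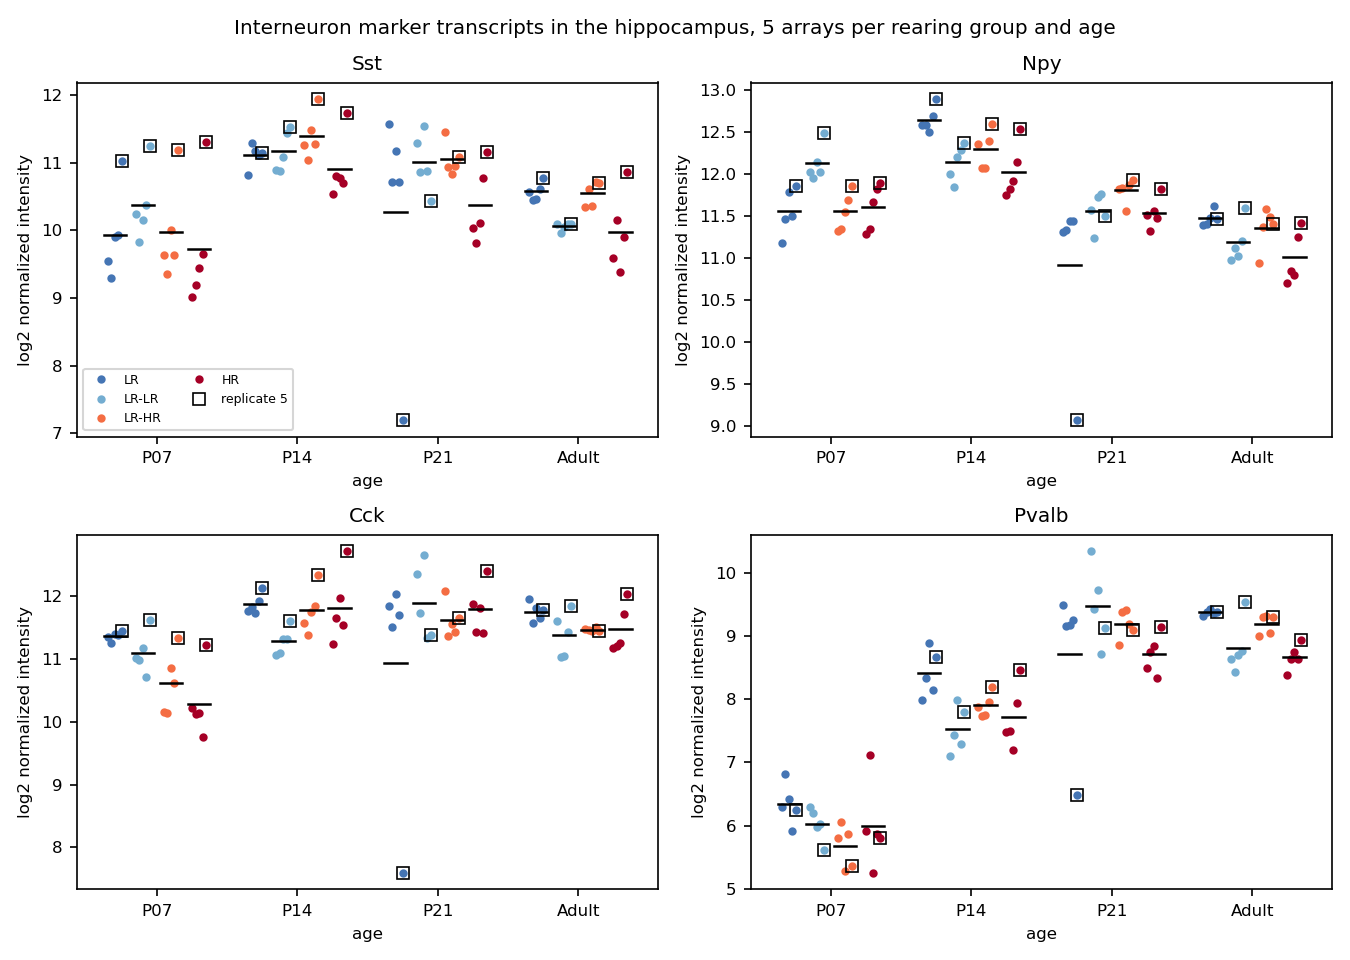
Log2 normalized intensity (vertical axes) of each gene in the hippocampus by age, with 1 point per array, colours for the 4 rearing groups, a black bar at the mean of 5 arrays and an open square around replicate 5. Replicate 5 is the highest of its group for Sst at P07 in all 4 groups, and LR P21 replicate 5 is the lowest point of Sst (7.19), Npy (9.07) and Cck (7.59).

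No comparison of rearing groups called a member in the hippocampus in the main fits, which had no replicate block. Of 16 tests each, an unadjusted limma p under 0.05 was reached in 2 for LR-HR minus LR-LR and 6 for HR minus LR. For LR-LR minus LR the count was 6, and for HR minus LR-HR it was 2. The share of all transcripts under that unadjusted threshold is not given here, so these counts cannot be judged against a background. The shares that follow are at an adjusted p under 0.05. From P07 to adult, the share of all transcripts called was 2.91%, 0.583%, 0.969% and 0.00386% for LR-HR minus LR-LR, and 0.147%, 2.76%, 0% and 0.0502% for HR minus LR. It was 2.59%, 1.53%, 0.0116% and 0% for LR-LR minus LR, and 0.0116%, 1.04%, 0% and 0.0116% for HR minus LR-HR. Cck at P07 came nearest in the line comparison, with 11.35, 11.25, 11.40, 11.39 and 11.44 in LR and 10.22, 10.12, 10.14, 9.75 and 11.22 in HR arrays. Its difference was -1.08 ± 0.27 (adjusted p = 0.109), without overlap, and -1.31 without HR replicate 5 (adjusted p = 0.0238). Without that replicate Npy and Pvalb were also called at P14, at -0.74 and -0.88 (adjusted p = 0.0285 and 0.0323). In adults Pvalb read 8.38, 8.64, 8.74, 8.63 and 8.93 in HR and 9.32, 9.37, 9.43, 9.36 and 9.37 in LR arrays, without overlap and without a call (-0.71 ± 0.20, adjusted p = 0.286).

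In the comparisons taken as paired by number, a replicate block changed 3 hippocampal calls. Npy at P07 read 12.03, 11.96, 12.15, 12.03 and 12.49 in LR-LR arrays, all above the LR-HR arrays (11.33 to 11.86) and the LR arrays (11.18 to 11.86). With the block, Npy was lower in LR-HR (-0.58 ± 0.16, limma adjusted p = 0.0286, against 0.18 without it) and higher in LR-LR than in LR by 0.57 ± 0.16 (adjusted p = 0.0364, against 0.225). Those 2 fits called 8.74% and 6.42% of transcripts. Pvalb at P14 was lower in LR-LR than in LR arrays with the block (-0.88 ± 0.22, adjusted p = 0.0207, against 0.0681), in a fit that called 4.7% of transcripts. HR minus LR was not taken as paired at any age, but the block gave it 2 called members, against 0 without the block. Its mean same-number correlations were 0.283 at P07, 0.236 at P14 and 0.292 in adults, with lowest pairs of 0.081, 0.088 and 0.065.

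The change of the hippocampal differences with age called 1 member. For HR minus LR from P14 to P21 Npy moved by 1.24 ± 0.33 (limma adjusted p = 0.0389, 1.19% of transcripts called). The call rests on LR P21 replicate 5, without which the change was 0.77 (adjusted p = 0.103), and it was lost without any of the other replicate numbers (adjusted p = 0.105 to 0.128). No member was called for the other 2 steps of HR minus LR (0.131% and 0.0579% of transcripts) or for the 3 steps of LR-HR minus LR-LR (2%, 5.03% and 1%).

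Whether the foster comparison differed between the regions was tested at each age over 22192 transcripts. At P14 it was larger in the amygdala by 1.41 ± 0.28 for Sst, 1.35 ± 0.31 for Cck and 0.90 ± 0.24 for Npy (limma adjusted p = 0.00406, 0.0114 and 0.0343), where 2.53% of transcripts were called; Pvalb was not called (0.79 ± 0.32, adjusted p = 0.187). Sst and Cck were not called without replicate 2, 3 or 4 (adjusted p = 0.0532 to 0.124), nor Npy without replicate 1, 2, 3 or 4 (0.0927 to 0.261), at differences between 0.72 and 1.42. No member was called at P07 (0.225% of transcripts), P21 (20.9%) or in adults (5.11%). Without replicate 5, Sst and Cck were called at P21 too, with 1.63 and 1.37 (adjusted p = 0.00238 and 0.00998). The fit treats the 40 arrays as independent, while deviations of amygdala and hippocampus arrays of 1 group and number correlated at 0.04 to 0.23. With the replicate block, Cck was also called in adults (-0.73, adjusted p = 0.048).

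The nearest of the named genes were found by Pearson r over the 80 arrays of a region. In the amygdala Sst lay nearest Rps27 (0.939), Elob (0.934) and Rps29 (0.933) among 7881 named genes. Rps27 and Rps29 encode ribosomal proteins, and the 2 ranges of Sst enter this r. Pvalb lay nearest the potassium channel gene Kcna1 (0.929) and the myelin gene Mbp (0.922). Cck lay nearest Chchd10 (0.872), Mt3 (0.866) and Cox17 (0.85), and Npy nearest Dynll2 (0.635), Pcp4 (0.624) and Mrpl41 (0.614), the lowest likeness of the 4. In the hippocampus, among 9386 named genes, Sst and Cck shared Scn2a, a neuronal sodium channel gene, as nearest (0.822 and 0.843), Npy lay nearest Bex1 (0.826) and Pvalb nearest S100b (0.927), a calcium-binding protein gene of astrocytes. Without LR P21 replicate 5, Scn2a ranked 15 for Sst and 24 for Cck (0.758 and 0.745), behind Uqcrh for Sst (0.829) and Cox6a1 for Cck (0.866) as nearest, while Bex1 (0.761) and S100b (0.938) ranked 1. The arrays in each r share age and rearing group.

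Apart from age and rearing, the 3 peptide genes varied together from array to array and Pvalb less so. On deviations from the group means of 80 amygdala arrays, Pearson r was 0.43 for Sst with Npy, 0.43 for Sst with Cck and 0.48 for Npy with Cck, with Spearman rho of 0.35, 0.49 and 0.44. The adjusted p of r over the 12 pairs by permutation within groups was 0.0013, 0.00027 and 0.0013, and without the 2 arrays farthest from the median of the first gene r was 0.30, 0.41 and 0.45. With Pvalb, r was at most 0.10 in the amygdala (adjusted permutation p of 0.394 or more). The permutation treats the arrays of a group as independent, so these p-values do not take into account that same-numbered arrays deviated together. In 12 of 32 comparisons every same-number pair correlated over 0.1. Others missed this through single pairs, such as HR minus LR in the adult amygdala (mean 0.23, lowest pair 0.063). With the means of same-numbered arrays of 1 age removed as well, r was 0.42, 0.33 and 0.40 for the 3 peptide pairs.

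In the hippocampus r was 0.82, 0.86 and 0.84 for the same 3 pairs, with rho of 0.68, 0.68 and 0.65 (adjusted permutation p = 4e-05 each, from 1e-05, the smallest p that 100000 resamples can give), and 0.71, 0.75 and 0.67 without the 2 farthest arrays. Pvalb had r of 0.45 with Sst, 0.57 with Npy and 0.63 with Cck (adjusted permutation p = 0.112, 0.0433 and 0.0207), with rho of 0.16, 0.29 and 0.29. Without the 2 farthest arrays these r fell to 0.19, 0.26 and 0.36, so the relation with Pvalb rests in large part on those arrays. Without LR P21 replicate 5 alone, r was 0.65, 0.73 and 0.60 for the peptide pairs, and 0.34, 0.56 and 0.46 with the same-number means removed too. Pvalb then had r of 0.02 with Sst, 0.15 with Npy and 0.25 with Cck.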

How the data were processed

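Total RNA from dissected amygdala and hippocampus of male rats was measured on 1-colour NimbleGen arrays, 160 in all and 5 per group, and groups and replicate numbers were read from the sample titles. The deposited values were linear intensities made by the authors with RMA, per the submitters' processing notes; RMA corrects background, normalizes and summarises probes, and the notes give no version or settings. The 2 regions held different transcripts and had array medians of 177.5 to 234.8 (amygdala) and 114 to 130.4 (hippocampus), so they were not compared in level. The number of arrays limits the precision, since arrays give no counts.

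Here log2 of each intensity was taken without a pseudocount or filter, and the random control row was left out. Of 25903 identifiers 9506 had a symbol in the RefSeq table of GRCr8. Over all transcripts, limma 3.58.1 (R 4.3.3) fitted linear models: 1 fit of 20 arrays per region and age with 4 rearing means, 1 fit of 80 arrays per region for steps between ages and their interactions, and 1 fit of 40 arrays per age for the difference between regions. The comparisons were LR-HR minus LR-LR (foster), HR minus LR (line), LR-LR minus LR (fostering) and HR minus LR-HR. Adjusted p is Benjamini-Hochberg over all transcripts, and all adjusted p of single genes come from limma unless called permutation. Correlations used 100000 permutations within groups with scipy 1.17.1. The fits were tested on simulated data.

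The member genes and the gene lists were chosen with earlier results of these data known. From each list counted, up to 2 called rises and 2 called falls of largest size in the comparison described were named, with the 3 genes of highest r per member, and other genes named were chosen after their values were seen. Some genes that this rule names are not reported here.

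Same-numbered arrays were taken as paired where each same-number pair of deviations from group means correlated over 0.1, which held in 12 of 32 comparisons: in the amygdala the line, fostering and HR minus LR-HR comparisons at P07 and the foster, fostering and HR minus LR-HR comparisons in adults, and in the hippocampus the foster, fostering and HR minus LR-HR comparisons at P07, the fostering and HR minus LR-HR comparisons at P14 and the foster comparison in adults. Mean same-number correlations over the 32 ran from -0.01 to 0.43, against -0.10 to 0.01 for other numbers. Comparisons not taken as paired had means of up to 0.316, for LR-LR minus LR in the adult hippocampus (lowest pair 0.054). The count of 12 thus depends on the rule. The pairing comes from the data, not from the labels.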

Additional observations from a re-analysis of the deposited data

Results flagged for a closer look

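In 12 of 128 tests, 1 per gene and group of 5 arrays, 1 array stood farther from the rest than Dixon's 95% critical value of 0.71 allows. Chance gives about 1 in 20 for a single test. The 4 genes were read on the same arrays, so the tests are not independent and that rate is no yardstick for the 12. LR P21 replicate 5 in the hippocampus was low in all 4 genes: 7.19 for Sst, 9.07 for Npy, 7.59 for Cck and 6.49 for Pvalb. HR replicate 5 in the hippocampus was high in Sst at P07 (11.31) and P14 (11.73), and LR-HR replicate 3 was low in Npy at P21 (11.56). In the amygdala, adult LR-LR replicate 5 was high in Sst (12.79) and Cck (14.03). HR replicate 4 was high in Cck at P14 (12.44), and HR replicate 1 was low in Npy at P07 (12.10). HR replicate 4 was also flagged as low in Npy in adults (11.92), but only through rounding. With 3 decimals it read 11.916, the next array 11.966 and the highest 11.989, which falls short of the critical value.

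Differences between rearing groups changed with age, by a direct test, for several members of the amygdala. The difference LR-HR minus LR-LR changed from P07 to P14 by 1.66 in Sst, 0.98 in Npy, 1.66 in Cck and 1.09 in Pvalb. It changed from P14 to P21 by -0.84 in Npy, and from P21 to adult by -1.59 in Sst, -1.70 in Cck and -0.81 in Pvalb. The difference HR minus LR changed in Sst by -1.92 from P07 to P14, by 3.27 from P14 to P21 and by -2.84 from P21 to adult. In Cck it changed by 1.36 and -1.39 at the later 2 steps, and in Npy by -0.98 at the last. In the hippocampus this difference changed by 1.24 in Npy from P14 to P21, and by 0.77 without LR P21 replicate 5. At P14 the difference LR-HR minus LR-LR was larger in the amygdala than in the hippocampus by 1.41 in Sst, 0.90 in Npy and 1.35 in Cck.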

How the results depend on the processing

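Of 1188 values of single genes under other processing (quantile normalization, median centring, transcripts above the median level, trend and robust variance, replicate block, fits on the groups compared, LR and HR arrays only, 1 hippocampal array left out), 1143 kept their direction where called and their side of the threshold, 6 lost a call, 38 gained one and 1 reversed: the Cck step from P14 to P21 in the amygdala was -0.20 with LR and HR arrays only. Of 1720 values with a replicate left out, 1680 kept both, 30 lost a call, 10 gained one and 0 reversed. The alternative without LR P21 replicate 5 was chosen after seeing the data, and gave 0 called members instead of 1 for the hippocampal change of HR minus LR with age. In the hippocampus LR-LR minus LR had 1 call instead of 0 with quantile normalization and 1 with transcripts above the median level, and HR minus LR had 2 with trend and robust variance. With the replicate block, whether or not the numbers pair the arrays, the hippocampal counts were 1 for LR-HR minus LR-LR, 2 for HR minus LR and 2 for LR-LR minus LR, and it changed no other such count by over 1.5 times. With a replicate left out, the count ran from 5 to 7 (8 with all) for the amygdala change of LR-HR minus LR-LR with age, from 0 to 3 (0) for HR minus LR in the hippocampus, was 0 throughout (1) for its change with age, and ran from 0 to 5 (3) for the difference between regions. Pvalb gained calls with quantile normalization in the amygdala, for LR-HR minus LR-LR at P21 (0.69) and in adults (-0.61) and for HR minus LR in adults (-0.66). Cck for HR minus LR at P14 in the amygdala was called with median centring (-0.57), transcripts above the median level, trend and robust variance, the replicate block and without LR replicate 3. The cause was not tested. Removing same-number means from correlations was also chosen after seeing the data. Correlations called rose from 8 to 12 of 12 when only age means were removed. Counts over all transcripts moved widely. In the amygdala LR-HR minus LR-LR at P07 called 20, against 404 with the replicate block and 0 with only those groups, and LR-LR minus LR in adults called 146, against 0 with only those groups. In the hippocampus LR-HR minus LR-LR at P21 called 251, against 3 with only those groups and 2163 without LR-LR replicate 4, and the region difference at P21 called 4640, against 268 without replicate 2. The step from P21 to adult in the hippocampus called 3924, against 414 with LR and HR arrays only. At P14 38.3% of amygdala transcripts called for LR-HR minus LR-LR were higher, and 49% with median centring; at P21 28.4% and 54.1%, and in adults 79% and 61.8%. For HR minus LR the shares were 25.7% and 55.4% at P21 and 71.9% and 55.8% in adults. The second-highest row of a gene was not run, since each gene had 1 row.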
